A study of Homo sapiens with 30 samples.

Results

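The response to 3 h of dexamethasone was measured in A549 cells that had been kept in MS023 for 7 days. A549 is an established human lung adenocarcinoma line, dexamethasone (Dex, 100 nM) is a synthetic glucocorticoid, and MS023 (1 µM) inhibits Type I protein arginine methyltransferases. The comparison was formed by the sample labels, with 2 libraries of 7 days of MS023 followed by Dex for 3 h against 2 libraries of 7 days of MS023 alone, which is 4 of the 30 libraries of the series. Every gene was eligible, and 22919 of the 58780 genes in the count table had enough counts to be tested. Further groups of 2 libraries each were used beside it, namely untreated cells, Dex for 3 h without inhibitor, MS023 for 7 days and then Dex for 15 min, and GSK591 (1 µM, an inhibitor of the methyltransferase PRMT5) for 7 days with or without a final 3 h of Dex. All of these groups, the untreated one included, were in 0.01% DMSO. Nascent transcription was read by PRO-seq, a precision nuclear run-on method in which engaged polymerases in permeabilised cells add a labelled nucleotide to the RNA they are making. The labels do not say whether the replicates were separate cultures, so the p-values measure the spread between these samples, which may be technical.

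Glucocorticoids cross the cell membrane and bind the glucocorticoid receptor NR3C1, which is held by HSP90 and its cochaperones until the hormone is bound. The receptor then enters the nucleus, binds DNA at its own palindromic sites and activates some genes, while inflammatory genes driven by NF-kB and AP-1 are repressed. In lung epithelium this program is known for its anti-inflammatory effect and for its control of sodium and fluid transport. Type I arginine methyltransferases, of which PRMT1 is the main cellular enzyme, place asymmetric dimethyl marks on histones and RNA-binding proteins.

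The 4 libraries were alike in depth and composition. They held 9042606 to 9347165 counts, of which mitochondrial genes took 58.7% to 59.8%, leaving 3636559 to 3818055 counts on other genes. The correlation of log2 CPM between replicates, across 11117 genes of 1 library pair at a time, was 0.980 for MS023 alone and 0.975 for MS023 then Dex. CPM is the usual depth-scaled count of a gene, here made comparable between libraries by the TMM method. Epithelial markers were present, with KRT8 at 189 and 181 CPM and KRT18 at 97.9 and 96.7 CPM under MS023 alone. Of the markers of other cell types, LUM (fibroblasts) had 0 counts in the 4 libraries and PTPRC (immune cells) had at most 1, while the fibroblast marker COL1A2 had 30 in the first Dex library and 1 to 3 in each of the others. Of 3 fibroblast, 3 immune and 3 endothelial markers with enough counts to test, CD79A (log2 fold change 0.92) and CD14 (-1.25) passed the test, both below 5 CPM in each of the 4 libraries. CD79A missed it without the second Dex library (0.68) or either MS023 library (0.97 and 0.89), and CD14 without the second Dex library (-0.97) or the first MS023 library (-1.19). Their part in the results was not tested.

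Dex changed transcription widely after MS023. It raised 1310 genes and lowered 1233, together 2543 genes or 11.1% of those tested, at an adjusted p below 0.05 (quasi-likelihood F test of edgeR, adjusted by Benjamini-Hochberg over all tested genes). Of these, 509 rose and 463 fell at least 2-fold, and 138 rose and 109 fell at least 4-fold. Protein-coding genes were called in 13.0% of cases (1020 higher and 927 lower of 14978), lincRNAs in 9.31% and antisense RNAs in 9.01%. The median log2 fold change over all genes tested was 0. The number of calls rested on having both replicates, since leaving out any of the 4 libraries brought it down to between 1428 (without the second library of MS023 alone) and 1676 (without the first).

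**Figure D1:**
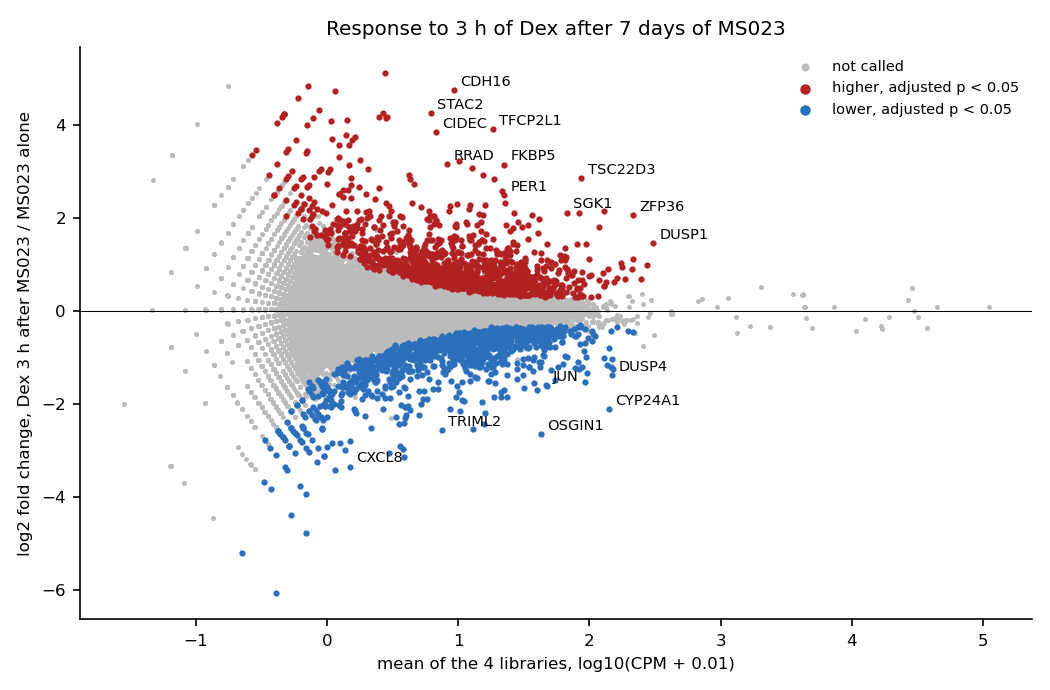
Log2 fold change of each tested gene (vertical axis, Dex 3 h after MS023 against MS023 alone) against its mean level over the 4 libraries (horizontal axis, log10 of CPM + 0.01), with called genes in red (1310 higher) and blue (1233 lower). Genes with low counts lie to the left and spread widely, while CDH16, TFCP2L1, TSC22D3, OSGIN1 and CYP24A1 stand apart at moderate to high levels.

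The largest rises among well-measured protein-coding genes began with CDH16, which encodes the kidney-type cadherin 16 (ENSG00000166589.12, chromosome 16, 66908122 to 66918984, minus strand, coordinates of GENCODE 29 on GRCh38). It stood at 0.425 and 0.869 CPM in the MS023 libraries and at 16.0 and 19.6 CPM after Dex, a log2 fold change of 4.76 (SE 0.261, a 27.1-fold rise). Both Dex libraries were far above both others. STAC2 rose from 0.708 and 0.507 CPM to 10.8 and 12.8 CPM (log2 fold change 4.25, SE 0.314). The transcription factor gene TFCP2L1 went from 2.27 and 2.32 CPM to 34.7 and 34.4 CPM, a log2 fold change of 3.91 (SE 0.180), with nearly identical replicates. CIDEC, which encodes a lipid droplet protein, rose from 1.13 and 0.579 CPM to 11.6 and 13.5 CPM. After these came CES4A (log2 fold change 3.22), RRAD (3.16), FKBP5 (3.15), GPR153 (3.07), TSC22D3 (2.87), ETNK2 (2.84), TCF19 (2.59), PER1 (2.49), HPGD (2.33), POU5F1 (2.30) and SYBU (2.28). RRAD encodes a small GTPase that inhibits calcium channels, and HPGD the enzyme that inactivates prostaglandins. Exons of CES4A, TSC22D3, ETNK2, TCF19, POU5F1 and SYBU overlap those of genes on the opposite strand and exons of PER1 those of genes on the same strand, so reads of these genes could be shared.

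Some of these genes are neighbours in the genome, a grouping that was looked at after the values were seen. CDH16, RRAD and CES4A lie within 101.6 kb of chromosome 16 (66908122 to 67009758). Between RRAD and CES4A lie CIAO2B (log2 fold change 0.27), CES2 (0.34) and CES3 (0.30), none of which passed the test. Thus 3 of the 6 tested protein-coding genes there rose, beside 5.72% of all genes tested. CES2 stood at 28.0 and 25.9 CPM before and 30.5 and 37.7 CPM after Dex. TCF19 (31158542 to 31167159, plus strand) and POU5F1 (31164337 to 31180731, minus strand) overlap on chromosome 6, and both were called higher in the counts. Since the use of strand in counting is not known, the reads of TCF19 and POU5F1 cannot be told apart. In the authors' deposited tables POU5F1 had a difference of 2.47 between MS023 then Dex and MS023 alone, and TCF19 one of -0.18.

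The largest falls were led by OSGIN1, an oxidative stress response gene and growth inhibitor (ENSG00000140961.12, chromosome 16, 83948282 to 83966332, plus strand). It went from 72.6 and 75.6 CPM to 11.6 and 11.9 CPM, a log2 fold change of -2.65 (SE 0.115), and the replicates of each group nearly coincided. Its exons overlap those of another gene on the same strand. CYP24A1, the enzyme that breaks down active vitamin D, fell from 229 and 226 CPM to 50.1 and 55.1 CPM (log2 fold change -2.11, SE 0.131). CYP26B1, which degrades retinoic acid, fell from 20.5 and 23.4 CPM to 4.61 and 2.95 CPM (log2 fold change -2.53, SE 0.185). Both enzymes that clear a nuclear receptor ligand were thus transcribed at a lower level in each Dex library than in either MS023 library. The other large falls were those of TRIML2 (log2 fold change -2.56), GREM1 (-2.42), LRRC25 (-2.18), KRT80 (-2.14), ADAMTS1 (-2.0), TFPI2 (-1.96), TGFB2 (-1.93), MIR9-1HG (-1.90), DDIT4L (-1.89), CXCL1 (-1.89), IGFBP3 (-1.84) and PRAG1 (-1.84). Among them TFPI2 encodes an inhibitor of tissue factor, IGFBP3 a carrier of insulin-like growth factors and GREM1 an antagonist of bone morphogenetic proteins. Exons of GREM1, TFPI2, TGFB2 and DDIT4L overlap those of other genes.

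Classical glucocorticoid-induced genes rose almost as a block. Of 40 genes in this list 39 were tested, 32 rose, 1 fell (EDN1) and 6 did not pass, with a median log2 fold change of 0.97. Over all genes tested 5.72% rose and 5.38% fell. The list was drawn up from general knowledge of the hormone, with earlier results of these data known. FKBP5, a cochaperone that lowers the receptor's affinity for hormone, rose from 3.82 and 5.28 CPM to 42.8 and 38.1 CPM, a log2 fold change of 3.15 (SE 0.249, Benjamini-Hochberg adjusted p = 9.17e-09, edgeR). TSC22D3, which encodes the anti-inflammatory protein GILZ, rose from 20.8 and 20.9 CPM to 145 and 161 CPM (log2 fold change 2.87, SE 0.125). ZFP36, whose product triggers decay of cytokine mRNAs, rose from 87.2 and 78.2 CPM to 330.0 and 361 CPM (2.06, SE 0.111). In each of these the lowest Dex library was at least several times the highest MS023 library. DUSP1, a phosphatase that switches off MAP kinases, rose from 157 and 168 CPM to 415 and 480.0 CPM (1.46, SE 0.110). ANGPTL4 (1.99) and PDK4 (1.63), both metabolic regulators, and CEBPB (1.45), FOXO3 (0.93), ERRFI1 (0.89) and TIPARP (0.84) were also higher. Genes with few counts had large but loosely fixed changes, with IP6K3 at 4.26 (SE 0.492), ZBTB16 at 4.12 (SE 0.692) and ALOX15B at 3.58 (SE 0.578), all below 6 CPM after Dex. EDN1, the gene of the vasoconstrictor endothelin 1, fell from 39.4 and 39.9 CPM to 15.5 and 18.1 CPM (log2 fold change -1.24). Members that did not pass included CRISPLD2 (-0.59), LCN2 (-0.86), HIF3A (0.87), DPP4 (0.46) and BCL6 (0.22).

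**Figure D2:**
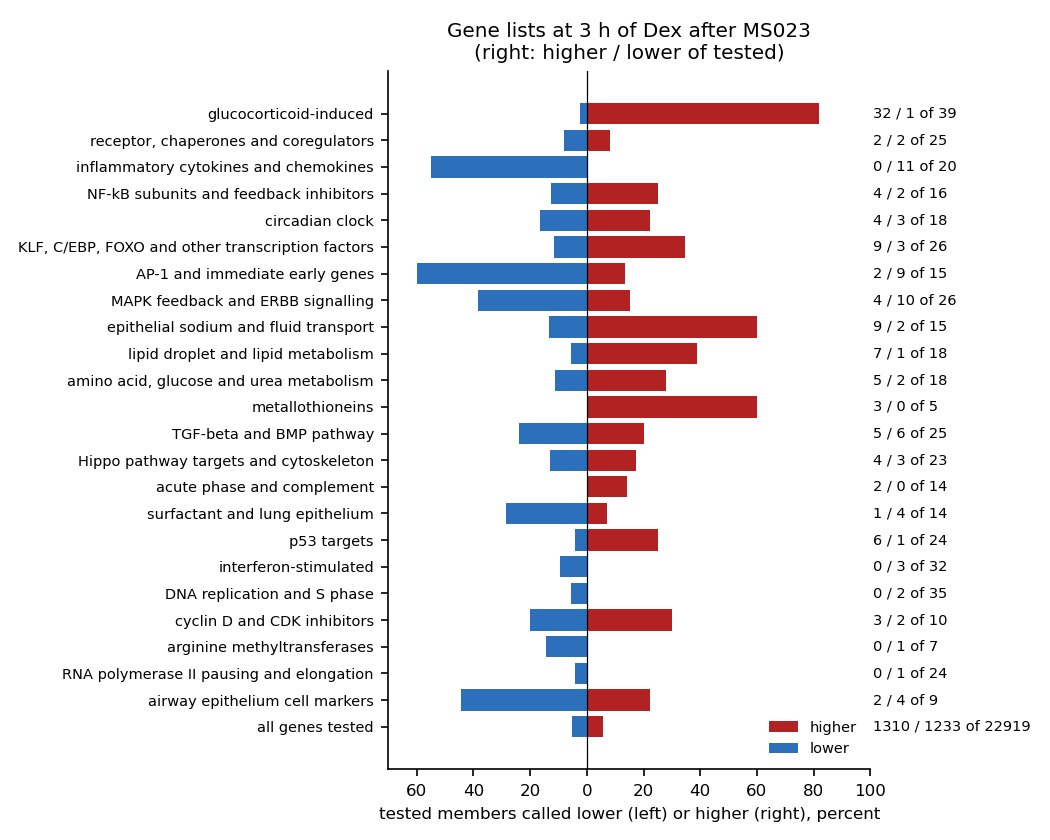
Share of tested members of each gene list called higher (red, to the right) or lower (blue, to the left) at 3 h of Dex after MS023, in percent, with the counts at the right edge. The glucocorticoid-induced list reaches furthest to the right (32 of 39), the inflammatory and AP-1 lists furthest to the left (11 of 20 and 9 of 15), and the bar of all genes tested gives 5.72% and 5.38%.

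Most genes for the receptor and its partners did not pass the test. Of 25 tested genes for the receptor, its chaperones and coregulators, 2 rose (FKBP5, described above, and HSPA8) and 2 fell (NR3C1 and PRMT1), which is 16.0% beside 11.1% of all genes, with a median log2 fold change of 0. NR3C1, the receptor gene itself (ENSG00000113580.14, chromosome 5, 143277931 to 143435512, minus strand), stood at 69.9 and 65.5 CPM before and 45.3 and 57.5 CPM after Dex, a log2 fold change of -0.40 (SE 0.106). Without the first Dex library its value was -0.23 (adjusted p = 0.375) and without the first MS023 library -0.34 (adjusted p = 0.122) in the same edgeR test, so this fall rested on those libraries. PRMT1, the main target of MS023, stood at 45.8 and 43.4 CPM before and 30.5 and 35.3 CPM after Dex (log2 fold change -0.44, SE 0.107). It likewise missed the threshold without the first Dex library (-0.33) or the first MS023 library (-0.39). HSPA8, the constitutive HSP70 chaperone, rose from 76.8 and 71.4 CPM to 129 and 120.0 CPM (0.75). Of 7 tested arginine methyltransferase genes PRMT1 was the 1 that passed, and of 24 genes for polymerase pausing and elongation 1 did (CCNT2, log2 fold change -0.42), beside 11.1% of all genes. CCNT2 missed the threshold without either Dex library (-0.42 and -0.40) or without the second MS023 library (-0.21).

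The time of the response was read by comparing 3 h with 15 min of Dex, both after MS023. This comparison does not use the libraries of MS023 alone, and it called 1661 genes higher and 1288 lower at 3 h, or 12.9% of those tested (7.25% and 5.62%). With scaling by total counts alone the higher share of its calls went from 56.3% to 76.1%, and the median of all genes moved to 0.13. Of the 1310 genes that rose over MS023 alone, 814 were also higher at 3 h than at 15 min, 5 were lower and 491 did not pass that test. Of the 1233 that fell, 738 were also lower at 3 h than at 15 min. The 2 comparisons share the 3 h libraries, so these counts are not independent. The size of the second comparison rested on both replicates, as it gave 1708 to 1862 calls when any of its 4 libraries was left out, the fewest without the second 3 h library and the most without the second 15 min library.

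PER1, a repressor of the circadian clock, was the clearest early gene. It stood at 7.72 and 5.79 CPM under MS023, at 35.1 and 41.0 CPM after 15 min of Dex and at 35.7 and 40.2 CPM after 3 h. The difference between the 2 times was -0.01 on the log2 scale (Benjamini-Hochberg adjusted p = 0.988, edgeR), and the 15 min and 3 h libraries overlapped. NFKBIA, the inhibitor IκBα, followed the same course, with 54.7 and 49.3 CPM, then 189 and 185 CPM, then 175 and 193 CPM. DUSP1 did so too, with 392 and 440.0 CPM at 15 min. At the other end, CDH16 stood at 1.38 and 0.832 CPM at 15 min, close to its level without Dex, and its rise of 3.98 on the log2 scale took place between 15 min and 3 h. STAC2 (3.80), GPR153 (3.16), RRAD (3.10) and TFCP2L1 (2.80) completed the 5 largest called rises of this kind at 5 CPM or more on average. FKBP5 lay between, with 8.27 and 8.99 CPM at 15 min and a log2 difference of 2.23 from 15 min to 3 h. TSC22D3 and SGK1 made much of their rise by 15 min and were higher again at 3 h, by 0.76 and 1.04. Many falls were late, with GREM1 (-2.93 from 15 min to 3 h), OSGIN1 (-2.39) and CYP26B1 (-2.23) among the largest. GREM1 stood at 38.4 and 36.5 CPM after 15 min, above its 29.7 and 22.7 CPM without Dex, and at 6.08 and 3.69 CPM after 3 h. The pseudogene transcript AADACP1 (-2.48) was called as well. The antisense RNA AD000090.1 met the naming rule with -3.52, but it stood at 19.4 CPM in the first 15 min library and 0.832 CPM in the second, and without the first its value was 0.07.

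**Figure D3:**
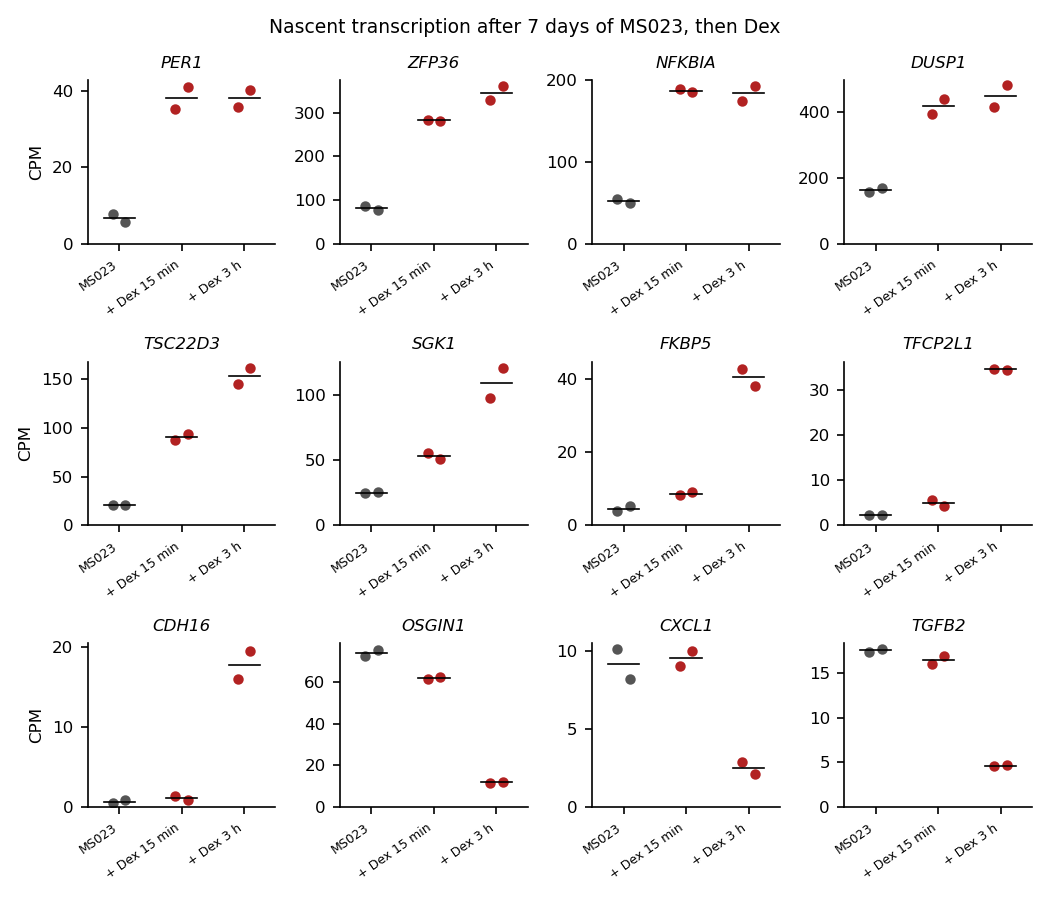
CPM of 12 genes in each library (points, 2 per group) and the group mean (bars) for MS023 alone (grey) and MS023 followed by 15 min or 3 h of Dex (red), each panel with a linear axis from 0. PER1, NFKBIA and DUSP1 reach their 3 h level by 15 min, whereas TFCP2L1 and CDH16 rise and OSGIN1, CXCL1 and TGFB2 fall mainly between 15 min and 3 h.

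The median gene length differed between these classes, and the direction was not the same for rises and falls. Among protein-coding genes that rose, the 671 called higher at 3 h than at 15 min had a median span of 19.8 kb. The 345 that did not pass the test between the times had 36.3 kb. Among protein-coding genes that fell, the 572 called lower at 3 h than at 15 min had 39.5 kb. The 353 that did not pass had 28.1 kb, beside 31.2 kb for all protein-coding genes tested. The part that length plays in these times was not tested.

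Genes of sodium and fluid transport rose in most cases. Of 15 tested members 9 rose (60%) and 2 fell (13.3%), beside 5.72% and 5.38% over all genes tested. The median log2 fold change was 0.59. SGK1, the kinase that keeps epithelial sodium channels at the membrane, rose from 24.6 and 25.6 CPM to 98.1 and 121 CPM, a log2 fold change of 2.12 (SE 0.118). The sodium channel subunit gene SCNN1B rose from 0.283 and 0.651 CPM to 3.08 and 2.95 CPM (2.66, SE 0.482). The subunit genes SCNN1A and SCNN1G were called higher too, less firmly. The SCNN1G call was lost without any of the 4 libraries (2.28 to 3.15). That of SCNN1A was lost without the second Dex library (0.24) or either MS023 library (0.41 and 0.35). The water and glycerol channel AQP3 rose (2.15), and ATP1B1, the beta subunit of the sodium pump, fell from 71.2 and 76.6 CPM to 56.2 and 54.1 CPM (-0.42). That fall missed the threshold without the second Dex library (-0.39) or the second MS023 library (-0.37). CLDN1, a tight junction protein, fell from 13.4 and 11.5 CPM to 6.81 and 6.50 CPM (-0.90).

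Metabolic genes were mixed, beside 5.72% higher and 5.38% lower over all genes tested. In the lipid list 7 of 18 tested members rose (38.9%) and 1 fell (5.56%). These included CIDEC, ANGPTL4, PDK4, a brake on pyruvate oxidation, and ACSL1 (0.94), which activates fatty acids, while LPIN1, a phosphatidate phosphatase, fell (-0.90). All 5 tested metallothionein-list members had positive values and 3 passed (60%). MT2A, a metal-binding protein, rose from 10.4 and 9.48 CPM to 40.2 and 46.1 CPM (2.12, SE 0.138). MT1X rose from 12.6 and 11.1 CPM to 40.9 and 40.6 CPM (1.78, SE 0.133). MT1F was called higher too, less firmly. Its call was lost without the first Dex library (0.84) or the second MS023 library (0.83), and with DESeq2 (0.98, adjusted p = 0.0761). Of 18 genes for amino acid and glucose metabolism 5 rose (27.8%) and 2 fell (11.1%). DDIT4, an inhibitor of mTORC1, rose from 143 and 128 CPM to 280.0 and 309 CPM (1.12). IRS1, the adaptor of the insulin receptor, fell from 56.1 and 59.9 CPM to 39.6 and 39.4 CPM (-0.55), while its relative IRS2 was higher (0.61), a call lost without the second Dex library (0.40, Benjamini-Hochberg adjusted p = 0.0709, edgeR). The cystine transporter SLC7A11 was lower, at 52.3 and 59.9 CPM before and 21.8 and 16.6 CPM after Dex (-1.54, SE 0.323). Without the second Dex library its value was -1.36 (adjusted p = 0.0751, edgeR).

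Transcription factor genes changed in both directions, beside 5.72% higher and 5.38% lower over all genes tested. In a list of KLF, C/EBP, FOXO and related factors 9 of 26 rose (34.6%) and 3 fell (11.5%). CEBPB rose from 42.7 and 43.9 CPM to 109 and 128 CPM (1.45), and KLF6 from 56.7 and 59.2 CPM to 81.7 and 83.8 CPM (0.52). KLF6 was higher still at 15 min, the log2 difference of 3 h against 15 min being -0.87. KLF11 fell from 13.0 and 12.7 CPM to 5.35 and 6.27 CPM (-1.14). In the clock list 4 of 18 rose (22.2%) and 3 fell (16.7%). The repressor genes PER1, PER2 (0.77) and CRY2 (1.41) rose, and BHLHE40, another repressor, fell from 79.9 and 91.2 CPM to 43.1 and 44.6 CPM (-0.96, SE 0.119).

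Inflammatory genes fell or did not pass. Of 20 tested members of the cytokine and chemokine list 11 fell and none rose, beside 5.38% and 5.72% of all genes tested. The median log2 fold change of the list was -0.95. Another 8 members had too few counts to test, among them IL6 with at most 3. The strongest fall was that of CXCL8, the neutrophil attractant interleukin 8, from 33 and 43 counts to 5 and 2 counts, or 2.34 and 3.11 CPM to 0.366 and 0.148 CPM (log2 fold change -3.34, SE 0.466). CXCL1 fell from 10.1 and 8.18 CPM to 2.86 and 2.07 CPM (-1.89, SE 0.213) and CXCL3 from 17.1 and 14.6 CPM to 5.05 and 5.98 CPM (-1.52, SE 0.175). The groups did not overlap for any of these, as was so for 52.4% of all genes tested. CX3CL1 (-1.87), CSF1 (-1.11), the macrophage growth factor, LIF (-1.02), PLAUR (-0.87), the urokinase receptor, and CXCL5 (-0.94) fell as well. PTGS2, which encodes cyclooxygenase 2, had -0.97, and -0.73 (adjusted p = 0.0533, edgeR) without the second Dex library. CXCL2 had -0.62, and -0.53 (adjusted p = 0.0793, edgeR) without the second MS023 library. CCL2 did not pass, with 16.6 and 12.4 CPM before and 12.8 and 14.8 CPM after Dex (-0.07, SE 0.176). CXCL8, CXCL1, CXCL5, CXCL3 and CXCL2 lie side by side on chromosome 4, and all 5 tested protein-coding genes in those 358.8 kb were lower, a count that follows from the list and was taken after the values were seen.

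NF-kB is a family of dimers that drive such genes and also drive their own inhibitors. Of 16 tested genes for its subunits and feedback inhibitors 4 rose (25%) and 2 fell (12.5%), beside 5.72% and 5.38% of all genes tested. Those that rose are inhibitors or survival factors. NFKBIA, which holds NF-kB in the cytoplasm, rose by 1.82 (SE 0.108), BIRC3 from 5.38 and 4.27 CPM to 18.4 and 17.9 CPM (1.91), and IRAK3, an inhibitor of Toll-like receptor signalling, from 0.637 and 0.724 CPM to 4.76 and 3.84 CPM (2.64). TNFAIP3, the deubiquitinase A20, had 0.92, and 0.79 (adjusted p = 0.0920, edgeR) without the first MS023 library. The subunit gene NFKB2 fell from 18.9 and 18.5 CPM to 12.7 and 12.0 CPM (-0.60), and NFKBIZ, a nuclear coactivator, from 66.4 and 60.0 CPM to 35.2 and 38.2 CPM (-0.78).

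Promoters of genes on both sides of this split carry the same NF-kB letters, which is why they are printed here. The sequences are from RefSeq (GRCh38.p14), 5′ to 3′ on the strand of the gene, with the match (GGG, any 2 bases, then TTTCC, searched on both strands) in capitals and 15 bases on each side. The window searched ran from 250 bases before to 50 bases after the start, and 13171 tested genes had a promoter in the table. The first 3 belong to genes that fell and the last 3 to genes that rose.
CXCL1, chr4:73869299-73869338, plus strand: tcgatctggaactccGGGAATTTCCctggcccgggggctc
CXCL3, chr4:74038744-74038783, minus strand: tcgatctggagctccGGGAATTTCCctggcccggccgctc
CXCL5, chr4:73998744-73998783, minus strand: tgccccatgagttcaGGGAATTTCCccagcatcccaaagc
NFKBIA, chr14:35404806-35404845, minus strand: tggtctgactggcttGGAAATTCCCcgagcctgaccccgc
BIRC3, chr11:102317270-102317309, plus strand: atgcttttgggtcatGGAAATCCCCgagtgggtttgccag
TNFAIP3, chr6:137867189-137867228, plus strand: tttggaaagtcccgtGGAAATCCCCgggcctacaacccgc

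The match begins 79 bases before the start in CXCL1 and CXCL3, 91 in CXCL5, 81 in NFKBIA, 199 in BIRC3 and 55 in TNFAIP3, which holds another match at 67, left in lower case within the bases printed before the capitals. In the last 3 the letters read on the opposite strand. Of 28 tested members of the inflammatory and NF-kB lists with a promoter in the table, 15 held the letters, of which 6 fell and 3 rose. The letters were in 1.91% of all 35116 promoters, or in 2.33% of all genes with a promoter in the table. They were in 2.78% of the tested genes, 2.96% of those that rose and 2.70% of those that fell. A match describes the letters only and is not evidence of binding.

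The full receptor palindrome (AGAACA, any 3 bases, then TGTTCT) was in the promoter of 1 gene of the whole table and of no tested gene. A looser form (GNACA, any 3 bases, then TGTNC) was in 0.304% of tested genes, in 7 of 844 that rose and in 0 of 779 that fell. Both forms read the same on either strand, and the looser one holds every match of the full one. It was in 0.390% of all promoters, or in 0.48% of all genes with a promoter in the table. Shown here with the match in capitals are 3 of the genes that rose, chosen after their values were seen.
TRIM63, chr1:26067810-26067852, minus strand: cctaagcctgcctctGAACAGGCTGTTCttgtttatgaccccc
MAP3K6, chr1:27367086-27367128, minus strand: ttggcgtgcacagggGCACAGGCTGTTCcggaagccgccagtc
CHST7, chrX:46573515-46573548, plus strand: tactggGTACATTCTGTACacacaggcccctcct

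TRIM63, a muscle ubiquitin ligase known as a glucocorticoid target, stood at 0 and 0.145 CPM before and 0.732 and 1.40 CPM after Dex, and its log2 fold change of 3.69 has an SE of 1.02. Its adjusted p was 0.0111, and 0.198, 0.229 and 0.0505 without the second Dex library, the first MS023 library and the second MS023 library, (edgeR). MAP3K6 had 0.54 and the sulfotransferase gene CHST7 1.10.

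AP-1, the other factor through which glucocorticoids repress, is a dimer of FOS and JUN family proteins. Of 15 tested AP-1 and immediate early genes 9 fell (60%) and 2 rose (13.3%), beside 5.38% and 5.72% of all genes tested. JUN fell from 64.6 and 75.2 CPM to 23.9 and 22.8 CPM (log2 fold change -1.58, SE 0.123), ATF3 from 5.52 and 6.08 CPM to 1.46 and 2.29 CPM (-1.62, SE 0.270) and EGR1 from 5.45 and 5.43 CPM to 2.42 and 2.21 CPM (-1.23). JUNB went the other way, from 67.2 and 59.4 CPM to 128 and 147 CPM (1.12, SE 0.112), and FOS from 44.5 and 44.9 CPM to 61.4 and 72.1 CPM (0.58). The members of 1 family therefore moved in opposite directions. Each had groups that did not overlap, as was so for 52.4% of all genes tested. The AP-1 letters TGANTCA, searched on both strands in the same windows, were in 7.71% of all promoters. Counted by gene, in any of its promoters, they were in 9.37% of all genes with a promoter in the table. They were in 7.25% of the tested genes, 9.83% of those that rose and 11.0% of those that fell. They were in 11.7% of those that rose and 14.9% of those that fell at least 2-fold. Single promoters were then searched for a set of lowered genes picked by name, with earlier results of these data known. The set also held CYP24A1, CYP26B1, GREM1, KRT80, ADAMTS1, IGFBP3, JUN, FOSL1, ATF3, EREG, DUSP5 and SPRY4, and DUSP4 was left out of the search. Only OSGIN1 and TFPI2 gave a match, shown in capitals.
OSGIN1, chr16:83953128-83953164, plus strand: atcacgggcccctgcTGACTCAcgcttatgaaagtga
TFPI2, chr7:93890819-93890855, minus strand: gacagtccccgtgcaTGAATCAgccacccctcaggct

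In a list of MAP kinase feedback and EGF receptor family signalling genes 10 of 26 tested fell (38.5%) and 4 rose (15.4%). The shares over all genes tested were 5.38% and 5.72%. The calls of EGFR (0.38 to 0.49) and ETV5 (-0.61 to -0.50) were lost without any 1 of the 4 libraries. Those of SPRY1, SPRED1, DUSP2 and DUSP10 were lost without at least 1. The phosphatase gene DUSP4 fell from 215 and 214 CPM to 77.2 and 88.9 CPM (-1.37, SE 0.102), and DUSP5 (-1.08) and DUSP8 (-1.83) fell with it, whereas DUSP1 rose. The ligand gene EREG, which activates the EGF receptor, fell from 14.7 and 14.9 CPM to 3.95 and 5.76 CPM (-1.60, SE 0.192). ERRFI1, which inhibits that receptor, rose from 28.3 and 27.5 CPM to 53.7 and 50.0 CPM (0.89). The ETS transcription factor gene ETV4 fell from 25.2 and 25.8 CPM to 10.5 and 11.7 CPM (-1.20).

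In the TGF-beta and BMP list 5 of 25 tested genes rose (20%) and 6 fell (24%), beside 5.72% and 5.38% of all genes tested. The ligand genes TGFB2, from 17.4 and 17.7 CPM to 4.54 and 4.65 CPM (-1.93, SE 0.178), and BMP4, from 21.5 and 19.6 CPM to 8.42 and 10.7 CPM (-1.10), fell, as did the BMP antagonist GREM1. The signal transducer SMAD3 fell from 87.6 and 92.2 CPM to 44.0 and 47.1 CPM (-0.98). The receptor gene TGFBR1 (1.25) and the target gene ID1 (0.62) rose. These ligands and the transducer thus fell while 1 receptor and this target rose.

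Cell cycle genes changed in both directions, with 3 of 10 tested cyclin D and CDK inhibitor genes higher and 2 lower. CCND3, a cyclin that drives entry into the cycle, fell from 61.9 and 55.8 CPM to 26.5 and 25.0 CPM (-1.19, SE 0.115), and CDK inhibitor genes CDKN1A, from 19.3 and 14.2 CPM to 34.6 and 35.4 CPM (1.06), and CDKN1C, from 13.4 and 11.7 CPM to 26.1 and 32.8 CPM (1.23), rose. Of 35 genes of DNA replication 2 fell and none rose (5.71% called), and of 32 interferon-stimulated genes 3 fell and none rose (9.38%), both below the 11.1% called over all genes. Of 24 p53 targets 6 rose and 1 fell (29.2%). The calls of the p53 targets FDXR (0.25 to 0.39) and TNFRSF10B (0.37 to 0.42) were each lost without any 1 of 3 libraries. In the surfactant and lung epithelium list 1 of 14 rose, the mucin gene MUC1, from 3.82 and 3.69 CPM to 9.45 and 11.4 CPM (1.47), and 4 fell (35.7% called). Of 9 airway epithelium markers 2 rose and 4 fell. The keratin genes KRT8 (1.0) and KRT18 (0.90) rose and KRT19 fell, from 21.8 and 18.5 CPM to 10.2 and 7.31 CPM (-1.20).

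Whether MS023 changed the response was asked by setting it beside Dex given without inhibitor, a comparison that shares no library with the one described. Its baseline was the untreated libraries, whose labels give a time of 15 min, so no untreated sample was matched to 3 h. The libraries also differed in composition. Mitochondrial genes took 69.2% to 76.0% of counts in the untreated and Dex libraries and 71.1% to 78.7% in those of GSK591 with or without 3 h of Dex, against 58.7% to 59.8% with MS023. TMM factors were 0.689 to 0.912 and 0.624 to 0.958 against 1.48 to 1.53. Leaving out mitochondrial and ribosomal RNA genes gave 53 calls in place of 51 in the interaction given below for Dex alone and 26 in place of 18 for GSK591, and the part of composition was not tested otherwise. Of all 22919 genes tested, Dex without inhibitor called 2410 and Dex after GSK591 2258. Of the 2543 genes called after MS023, 1210 were also called without it, and 1207 of those moved in the same direction. They make up 47.6% of the calls after MS023 and 50.2% of those without it. Of all 2543 genes, 92.4% had the same sign, a share that was not computed over all genes tested. Dex after 7 days of GSK591, again with other libraries, called 1250 of them, all in the same direction, or 49.2% of these calls and 55.4% of its own. The 3 settings had 541 genes higher and 339 lower in common. Another 965 genes passed after MS023 and in neither other setting, and for 6 of these a difference from Dex alone or from Dex after GSK591 passed its own test. Passing in 1 setting and missing in another is not a difference between them.

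**Figure D4:**
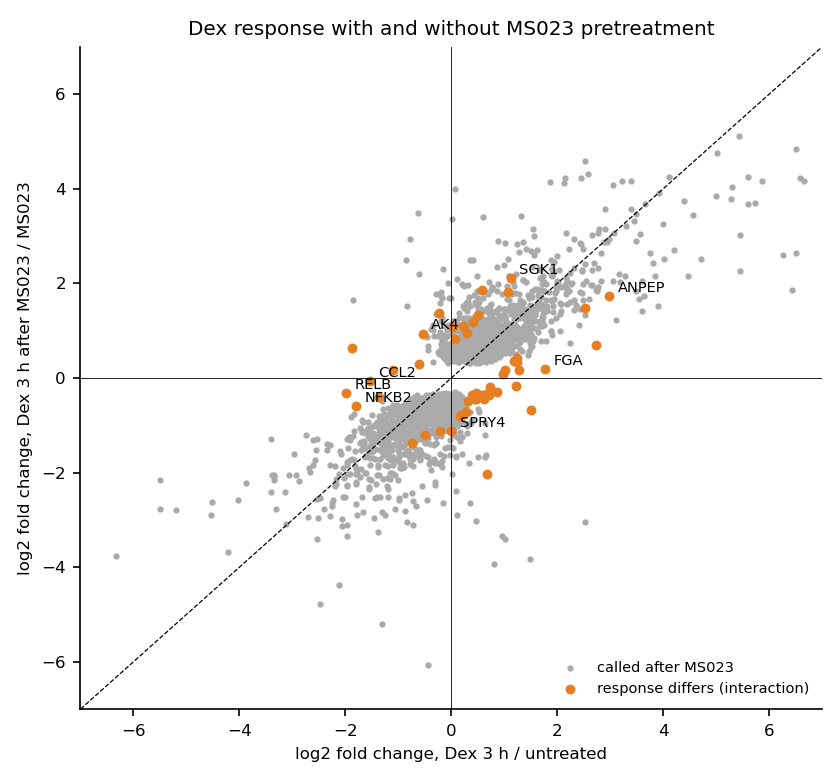
Log2 fold change at 3 h of Dex after MS023 (vertical axis) against that of Dex without inhibitor (horizontal axis) for the 2543 genes called after MS023 (grey) and the 51 genes whose responses differed by the interaction test (orange), with the line of equal response dashed. Most genes lie in the quadrants of equal sign (92.4%), and RELB, NFKB2, SPRY4, FGA and AK4 lie away from the line.

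The difference itself was tested as an interaction, the response to Dex after MS023 minus the response without it. Of 22919 genes 51 passed, 0.223%, with 18 values above (0.0785%) and 33 below 0 (0.144%). At an unadjusted p below 0.05 there were 2087. This count was fragile. It became 0 (1260 at an unadjusted p below 0.05, edgeR) when libraries were scaled by total counts alone, a scaling that moved the median of all genes to -0.17, and 81 with the replicate number as a block. Leaving out any of the 8 libraries moved it by more than 1.5 times, to between 10 (without the first untreated or the second Dex library) and 84 (without the first Dex library). With each of the 8 libraries left out in turn, SGK1, NFKB2, NFKBIZ, CCN1, FGA and SPRY4 passed every time among the genes named here.

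SGK1 responded more strongly after MS023. It stood at 24.1 and 28.2 CPM in untreated cells and 56.4 and 58.0 CPM after Dex, against 24.6 and 25.6 CPM under MS023 and 98.1 and 121 CPM after MS023 and Dex. The starting levels overlapped and the end levels did not. The interaction was 0.99 on the log2 scale (SE 0.168, Benjamini-Hochberg adjusted p = 0.00220, edgeR). SPRY4, which restrains MAP kinase signalling, stood at 16.7 and 17.6 CPM before and 18.4 and 15.8 CPM after Dex alone, and fell after MS023 from 22.8 and 23.7 CPM to 10.8 and 10.5 CPM. Its interaction was -1.12 (SE 0.198). CCN1, a matrix protein gene and Hippo pathway target, stood at 24.5 and 26.4 CPM in untreated cells and 27.1 and 29.9 CPM after Dex, and fell from 33.8 and 32.4 CPM to 19.0 and 18.8 CPM after MS023 (interaction -0.97, SE 0.169).

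NF-kB genes were among those that differed. NFKB2 stood at 39.4 and 36.4 CPM in untreated cells and 10.5 and 11.4 CPM after Dex, against 18.9 and 18.5 CPM and then 12.7 and 12.0 CPM with MS023 (interaction 1.19, SE 0.197). Its level was thus already lower in the MS023 libraries than in the untreated ones, and the levels after Dex were close. RELB, the partner of the NFKB2 product, showed the same order, from 12.2 and 10.5 CPM to 2.66 and 3.05 CPM without and from 5.10 and 3.98 CPM to 3.44 and 3.84 CPM with MS023 (interaction 1.67, SE 0.354). The RELB call held without the first MS023 library or the second untreated library and was lost without any of the other 6, with adjusted p of 0.0583 to 0.168 (edgeR). NFKBIZ stood at 75.0 and 80.7 CPM in untreated cells and 85.4 and 95.0 CPM after Dex, and fell with MS023 (interaction -1.0, SE 0.165). NFKBIA went from 65.8 and 79.4 CPM to 152 and 154 CPM without MS023, and moved further with it (interaction 0.75, SE 0.150). The NFKBIA call was lost without the second library of any of the 4 groups, with values of 0.61 to 0.76. CCL2 went without MS023 from 6.01 and 6.55 CPM to 2.23 and 2.08 CPM, and had -0.07 with it (interaction 1.47, SE 0.330). The CCL2 call held without the first MS023 library and was lost without any of the other 7, the values running from 1.28 to 1.58.

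**Figure D5:**
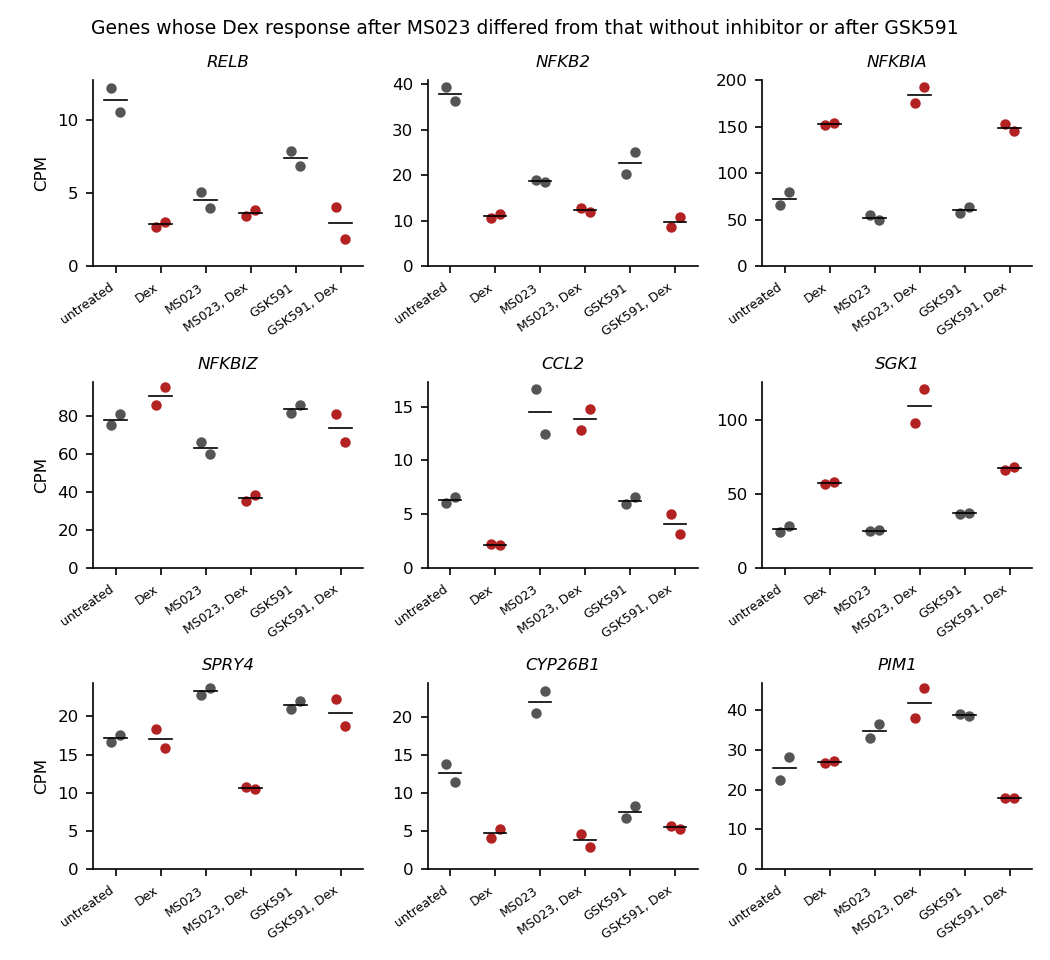
CPM of 9 genes in each library (points, 2 per group) with the group mean (bars) for untreated, MS023 and GSK591 cells without Dex (grey) and after 3 h of Dex (red), linear axes from 0. SGK1 ends highest after MS023 and Dex (98.1 and 121 CPM), SPRY4 is lowest after MS023 and Dex (10.8 and 10.5 CPM), and NFKB2 and RELB start lower under MS023 than untreated.

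FGA, the fibrinogen alpha chain, went with Dex alone from 2.45 and 2.42 CPM to 8.93 and 7.69 CPM and stood at 14.1 and 17.1 CPM under MS023 and 17.1 and 18.5 CPM after MS023 and Dex (interaction -1.58, SE 0.273). Its level under MS023 was therefore above that after Dex alone. The other genes with the largest interactions were AC245041.1 (1.60), AK4 (1.49), an adenylate kinase of mitochondria, and GALNT18 (1.29) above 0, and AC027373.1 (-1.38), the aminopeptidase gene ANPEP (-1.25) and PSMG3-AS1 (-1.16) below 0. AK4 went from 8.43 and 10.4 CPM to 17.1 and 19.2 CPM after MS023, and from 7.45 and 9.37 CPM to 6.17 and 5.37 CPM without it. Its call was lost without the second untreated library (1.31) or the second Dex library (1.40). ANPEP rose from 6.44 and 7.38 CPM to 21.7 and 24.4 CPM after MS023, somewhat above the 20.4 and 17.2 CPM of Dex alone, where it had started from 2.11 and 2.62 CPM. The calls of AC245041.1, GALNT18, AC027373.1, ANPEP and PSMG3-AS1 were each lost without any of at least 5 of the 8 libraries.

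The response after MS023 was also set against that after GSK591, where no library is shared. Of 22919 genes 18 differed, 0.0785%, with 10 values above (0.0436%) and 8 below 0 (0.0349%), and 1612 at an unadjusted p below 0.05 (edgeR). The count was 2 with scaling by total counts, where the median of all genes was -0.22, 34 with the replicate number as a block and 7 to 26 when a library was left out, moving by more than 1.5 times without the second library of MS023 then Dex (7), of MS023 alone (10) or of GSK591 then Dex (10), or without the first (8) or second (9) of GSK591 alone. SGK1, CYP26B1, MIR9-1HG, PIM1 and FEN1 passed with each of the 8 libraries left out in turn. SGK1 went from 36.6 and 37.0 CPM to 66.2 and 68.4 CPM after GSK591, less than after MS023 (difference 1.25, SE 0.167). PIM1, a survival kinase, stood at 32.9 and 36.6 CPM and then 37.9 and 45.4 CPM with MS023, and at 39.1 and 38.6 CPM and then 18.0 and 17.9 CPM with GSK591 (difference 1.37, SE 0.178). CYP26B1 fell after MS023 and stood at 6.74 and 8.31 CPM and then 5.73 and 5.27 CPM with GSK591 (difference -2.09, SE 0.290). Its level before Dex was therefore lower in the GSK591 libraries, and the levels after Dex were close. MIR9-1HG, the host transcript of a miRNA, had the same order, with 4.18 and 2.55 CPM and then 3.86 and 3.90 CPM after GSK591 (difference -2.08, SE 0.342). SPRY4 differed from the GSK591 setting too (-1.06, SE 0.195), where it stood at 20.9 and 22.0 CPM and then 22.3 and 18.7 CPM, but the call was lost without the second library of MS023 then Dex (-1.04), the first of GSK591 alone (-1.03) or the first of GSK591 then Dex (-0.93). The interactions with Dex alone and with GSK591 shared 3 genes.

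Exons of some other genes named above also overlap those of neighbours, namely ANGPTL4, ATP1B1, BHLHE40, CCND3, CCNT2, CDKN1A, CEBPB, DDIT4, ERRFI1, ETV4, HSPA8, IRAK3, IRS2, JUNB, KLF11, KRT8, KRT18, LIF, LPIN1, MT1X, MUC1, PER2, PRMT1, PSMG3-AS1, SLC7A11, SMAD3, TIPARP and TNFAIP3, so their reads could be shared.

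The authors' deposited tables give fold changes against untreated cells for the same libraries. Of the 2543 genes called here 1895 were found in them by an unambiguous name. For 896 of 954 that rose and 886 of 941 that fell, the authors' value for MS023 then Dex minus the authors' value for MS023 alone had the same sign, or 94.0% together. In the authors' deposited tables FKBP5 had 4.36 for MS023 then Dex and 0.15 for MS023 alone, and OSGIN1 -2.33 and 0.21. Other named genes differed between the 2 sources. In the authors' deposited tables the difference for TCF19 was -0.18 (2.59 from the counts), that for LRRC25 0.02 (-2.18 from the counts), and that for HIF3A 2.52 (0.87 from the counts, not called). KLF15, a glucocorticoid-responsive transcription factor, had a difference of 5.13 in the authors' deposited tables and 0.23 from the counts, with 13.3 and 15.1 CPM before and 16.5 and 16.9 CPM after Dex. The calls of TCF19 and LRRC25 here thus have no counterpart in those tables. For RELB the authors' deposited tables give -2.99 and -1.20, a difference of -1.79 where the counts gave -0.32. By the authors' deposited values the difference of responses for RELB was 1.12, and 34 of 36 interaction calls found in those tables had the sign of the counts. These are the same libraries processed in another way and not an independent measurement.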

How the data were processed

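PRO-seq was measured in A549 cells, and the files used are those the authors deposited. The counts are whole reads per gene that the authors made with featureCounts 2.0.1 of Subread on hg38, per the submitters' processing notes. The aligner, the feature type counted and the use of strand are not given in the sources used here, so overlapping genes are uncertain. The authors' DESeq2 tables hold, per the file headers, log2 fold changes with standard errors and p-values. They were used for signs and named values only. All gene identifiers matched GENCODE 29, with 36049 genes named in the count table and 22731 from GENCODE.

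A negative binomial model was fitted in edgeR 4.0.16 (limma 3.58.1, R 4.3.3) with TMM scaling, and genes were tested by quasi-likelihood with robust fitting. It held all 30 libraries in 15 groups without covariates, with 15 residual degrees of freedom. By filterByExpr (count of 10, total of 15) 22919 genes remained. Benjamini-Hochberg adjustment was made within each of 4 comparisons, with a threshold of 0.05. A standard error is the log2 fold change divided by the root of F. With 2 replicates a group, a permutation test of 1 gene could not go below p = 0.333, so the tests rest on a spread shared across groups (common biological coefficient of variation 10.6%). Scripts were tested on simulated data.

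The groups, genes and 26 lists were chosen with earlier results of these data known. Genes named are list members, the 15 protein-coding genes with the strongest called change in each direction (mean of 5 CPM or more, groups not overlapping), and 5 each way in the other comparisons. Lists are described by counts and medians, without a list test. Promoters are those of RefSeq (GRCh38.p14). Alternatives were DESeq2 size factors, total counts, no filter, DESeq2 1.42.0, only the groups compared, a replicate block, no mitochondrial and ribosomal RNA genes, the share of processed pseudogenes as a covariate, and each library left out. The labels do not say whether the replicate numbers pair the samples. Results for some genes are not reported here.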

Additional observations from a re-analysis of the deposited data

Results flagged for a closer look

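Effects of Dex that differed between settings by a test of the difference itself are gathered here. In the interaction of MS023 with Dex 51 genes differed from Dex alone. The values above 0 were those of RELB (1.67), AC245041.1 (1.60), AK4 (1.49), CCL2 (1.47), GALNT18 (1.29), NFKB2 (1.19), SGK1 (0.99) and NFKBIA (0.75). Those below 0 were FGA (-1.58), AC027373.1 (-1.38), ANPEP (-1.25), PSMG3-AS1 (-1.16), SPRY4 (-1.12), NFKBIZ (-1.0), CCN2 (-0.99), CCN1 (-0.97), GDF15 (-0.71) and DUSP4 (-0.63). All are log2 differences of the response after MS023 minus the response without it.

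Between MS023 and GSK591 as pretreatments 18 genes differed. The values above 0 were ALPK2 (1.62), PIM1 (1.37), ETNK2 (1.27), SGK1 (1.25), WEE1 (0.89) and DUSP1 (0.75), and those below 0 were CYP26B1 (-2.09), MIR9-1HG (-2.08), FAM72B (-1.61), STAB2 (-1.43), SPRY4 (-1.06) and FEN1 (-1.05). Exons of ALPK2, ETNK2, WEE1, FAM72B, STAB2 and FEN1 overlap those of other genes. Calls that did not hold with each of the 8 libraries left out in turn were those of ALPK2 (1.41 to 1.88), ETNK2 (1.09 to 1.45), WEE1 (0.67 to 1.15), DUSP1 (0.64 to 0.86), FAM72B (-1.80 to -1.41), STAB2 (-1.65 to -1.14) and SPRY4. With the libraries of the first interaction left out, CCN2 (-1.32 to -0.73), GDF15 (-0.81 to -0.60) and DUSP4 (-0.73 to -0.52) kept their sign but not the call.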

How the results depend on the processing

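The response to Dex after MS023 held 2543 calls, 1007 with total counts as the scaling, 1528 with DESeq2 and 1428 to 1676 without 1 library. Other settings gave 2301 to 3270. The interaction with Dex alone held 51 calls, but 0 with total counts (1260 at an unadjusted p below 0.05, edgeR), 125 without a filter, 33 with DESeq2, 132 with the pseudogene share as a covariate, 146 with only the groups compared, and 10 to 84 without 1 library. The difference from GSK591 held 18 calls, but 29 with DESeq2 size factors, 2 with total counts, 41 without a filter, 74 with the pseudogene share, 48 with only the groups compared, and 7 to 26 without 1 library. The comparison of 3 h with 15 min held 2949 calls, 1239 with total counts, of which 76.1% were higher against 56.3% before, 1653 with DESeq2 and 1708 to 1862 without 1 library. The cause of these moves was not tested, except that leaving out a library leaves fewer samples.

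With the replicate number as a block the counts were 2633 for the response after MS023, 81 for the interaction and 34 for the difference from GSK591. The labels do not say whether these numbers pair the samples. The correlation of deviations was -0.11 between MS023 and MS023 then Dex, which cannot decide it with 2 libraries a group. A crossed pairing, chosen after seeing the data, gave 2582 calls.

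Of 174 called genes whose values were followed, 100 were called in every alternative and 74 were lost in at least 1. Without 1 library CCL2 ran from -0.26 to 0.16 (0.04 without the first library of MS023 then Dex, 0.16 without the first of MS023 alone), and AD000090.1 at 3 h against 15 min from -4.43 to 0.07 (0.07 without the first 15 min library). Genes below about 5 CPM had fewer counts, and the part of depth in their calls was not tested.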

Other observations

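Homeobox genes of the HOXB cluster on chromosome 17 were examined after the values were seen. Of 7 tested protein-coding members from HOXB2 to HOXB9, within 85.5 kb, 4 fell after Dex and none rose. The shares over all genes tested were 5.38% and 5.72%. HOXB2 stood at 15.0 and 15.2 CPM under MS023 and 10.4 and 11.2 CPM after Dex (log2 fold change -0.48), and HOXB3 at 25.4 and 20.7 CPM and then 13.8 and 13.7 CPM (-0.75). HOXB4 (-1.04) and HOXB5 (-0.67) fell as well. HOXB6 (-0.17), HOXB8 (-0.04) and HOXB9 (0.08), at the other end of the cluster, did not pass. Exons of HOXB2, HOXB3, HOXB4, HOXB5 and HOXB6 overlap those of other genes, so their reads could be shared. These values were not recomputed with libraries left out. With Dex alone HOXB2 had -0.15, HOXB3 -0.50, HOXB4 0.08 and HOXB5 -0.34.

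Beside PER1 on chromosome 17, the lipoxygenase gene ALOX15B, with which it spans 117.5 kb, rose by 3.58 on the log2 scale, while ALOX12B (0.24), ALOXE3 (0.06) and HES7 (0.56) lie between them. With Dex alone ALOX15B had 2.90.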
